A study of Canis lupus familiaris with 77 samples.

Results

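The let-7 and miR-98 family was followed here across the tissues of the beagle dog. Its members were chosen by name: the rows called cfa-let-7a, cfa-let-7b, cfa-let-7c, cfa-let-7d, cfa-let-7e, cfa-let-7f, cfa-let-7g and cfa-miR-98, which are 8 of the 650 miRNA rows detected in the libraries used. The rule used names only, but it was set with earlier results of these data known.

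Small RNA was sequenced (miR-seq) from 16 tissues of untreated male Marshall beagles of about 10 months of age, with the question of which miRNAs mark which organ. The 76 libraries used comprised 5 samples each of brain, heart, skeletal muscle (from the quadriceps), liver, pancreas, kidney, lung, duodenum, jejunum, ileum, testis, thymus, bone marrow and plasma, 4 of colon and 2 of sciatic nerve. The animals had been perfused with saline before the organs were taken, and none carried a treatment or an engineered allele. All came from 5 dogs, so libraries of different tissues share animals. The labels do not say which, the fits have tissue as their only term, and p-values measure only the spread between these samples. The sources describe the sciatic nerve samples both as pooled and as individual, so p-values for sciatic nerve may not measure a spread between dogs. RNA of bone marrow and of plasma was isolated by other procedures than that of the organs. The paper also reports low RNA integrity for plasma and bone marrow, and fewer mapped reads for bone marrow. Differences of plasma or bone marrow from the organs therefore cannot be told apart from differences in RNA isolation and integrity.

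let-7 was among the first miRNAs found, as a switch of developmental timing in the nematode. In mammals it is a family of mature miRNAs that share a seed and differ from one another by few bases outside it, and miR-98 belongs to it. The genes lie in several clusters and are transcribed as primary RNAs, from which Drosha and Dicer cut the mature strands. LIN28 proteins block this maturation in stem and embryonic cells, so mature let-7 is known as abundant in differentiated adult tissue. The seed binds messages such as HMGA2, LIN28 and RAS genes and lowers their output. Since the members share their seed, their known targets overlap widely, and a tissue's total let-7 and its make-up are both of interest.

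The cfa-let-7d row differs in kind from the other members. It carries the human and rat names of let-7d-3p, the strand opposite the one that bears the let-7 seed, whereas the 5p strand of let-7d stands in a row of its own under its human name. Both rows are described here, and the 8 members always mean the rows chosen by name. let-7i and let-7j were not analysed here. In the gene table of another dog assembly, let-7d and let-7f are neighbours, let-7b and let-7a-1 are neighbours, let-7e lies beside miR-125a and miR-99b, let-7c and let-7a-2 each lie beside a miR-99a and a miR-125b gene, let-7g lies within WDR82 and miR-98 within HUWE1. Reads of let-7a cannot be assigned to a single gene, nor can those of let-7f, whose 3p rows carry the human names let-7f-1 and let-7f-2.

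The libraries held from 157871 to 7896424 reads on miRNAs, with a median of 1364823. The values below are RPM, the reads of a miRNA scaled to a common total of these reads, and 3 reads, the 95% limit that a count of 0 allows, corresponded to 0.380 to 19.0 RPM. Of the 608 values of members by library, 1 was at 0. Depth mainly limited let-7e in plasma and the let-7d row in shallow libraries, such as those of bone marrow and testis. Such limits cover counting error only, and RPM of different miRNAs also carry the bias of library preparation. Of the tissue marker miRNAs, 4 libraries were very low: the library labelled skeletal muscle 4 held 4.54 RPM of miR-206, testis 3 held 0.493 RPM of miR-202, and duodenum 3 and 4 held 424 and 480 RPM of miR-215 against 6982 to 91939 in the other duodenum libraries. Testis 2, at 241 RPM of miR-202 against 3340 to 5345 RPM in testis 1, 4 and 5, was also low. The counts of calls are given with and without the 4 libraries, and a fit without testis 2 as well gave like counts. Because tissue samples hold many cell types, fewer cells of a type and less RNA per cell cannot be told apart.

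The family took a median of 12.0% of all miRNA reads in sciatic nerve, 9.36% in lung, 8.55% in liver and 8.40% in brain. Skeletal muscle (2.66%) and plasma (1.01%) had the lowest shares, and the remaining 10 tissues lay between 3.67% and 5.79%. The 5 plasma libraries ranged from 0.613% to 2.45%, and skeletal muscle from 1.23% to 6.72%, with skeletal muscle 4 at the top. In plasma, miR-486, a miRNA known from red cells, took 42.3% to 76.1% of the reads. Its median share was 11.3% in heart, 7.95% in skeletal muscle and 6.53% in bone marrow. After removal of miR-486 the family made up a median of 2.53% in plasma and 2.89% in skeletal muscle, still the 2 lowest tissues, and 13.0% in sciatic nerve, still the highest.

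let-7a and let-7f supplied most of these reads. Together they made up a median of 76.8% of the reads of the 8 members, from 61.5% in the lowest library outside plasma to 88.8% in the highest. let-7a was the most abundant member in 37 libraries, let-7f in 36 and let-7g in 3, all 3 of them plasma. let-7b, let-7c, let-7e, let-7g and miR-98 shared nearly all of the remainder, and the let-7d row exceeded 0.274% of the family in no library outside plasma. These shares do not depend on how the libraries are scaled against each other.

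**Figure D1:**
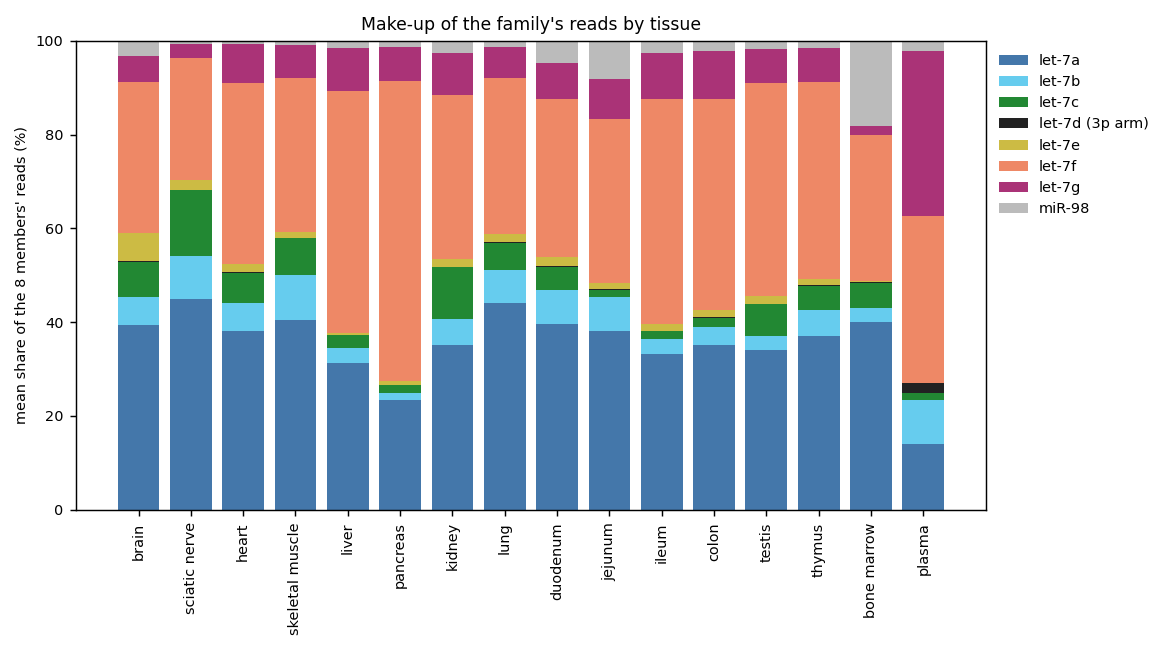
Mean share of each of the 8 members in the family's reads, in percent, for each of 16 tissues (mean over 2 to 5 libraries). let-7a (blue) and let-7f (orange) fill most bars; let-7g (purple) is widest in plasma at a median of 34.8%, miR-98 (grey) in bone marrow at 17.6% and let-7f in pancreas at 64.5%.

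In bone marrow, plasma, pancreas and brain single members stood apart in their share of the family. In bone marrow miR-98 supplied 16.7% to 21.4% of the family's reads, above all other libraries, whose highest value was 11.4%. let-7g supplied 1.75% to 2.61% there, below all other libraries, whose lowest value was 2.72%. In plasma let-7g supplied 18.7% to 45.0% and let-7a 13.2% to 14.9%, while in the other tissues let-7g reached at most 11.0% and let-7a fell no lower than 21.6%. In pancreas let-7f supplied 61.8% to 67.1%, above the highest value elsewhere of 58.8%, a plasma library. In brain let-7e supplied 4.14% to 7.03%, above the highest value elsewhere of 3.03%.

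Levels by library are plotted for each member below. The order of tissues differed between members: sciatic nerve, lung and brain led for let-7a and let-7b, sciatic nerve also for let-7c, liver for let-7f and let-7g, brain for let-7e, bone marrow for miR-98 and plasma for the let-7d row. Between tissues next to each other in the order of medians, the ranges of the libraries overlapped in 12 to 15 of 15 pairs per member. The neighbours without overlap were skeletal muscle and plasma for let-7a, sciatic nerve and brain for let-7c, pancreas and lung for let-7f, heart and skeletal muscle for let-7g, bone marrow and jejunum for miR-98, and, for let-7e, brain and sciatic nerve, lung and testis, and bone marrow and plasma.

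**Figure D2:**
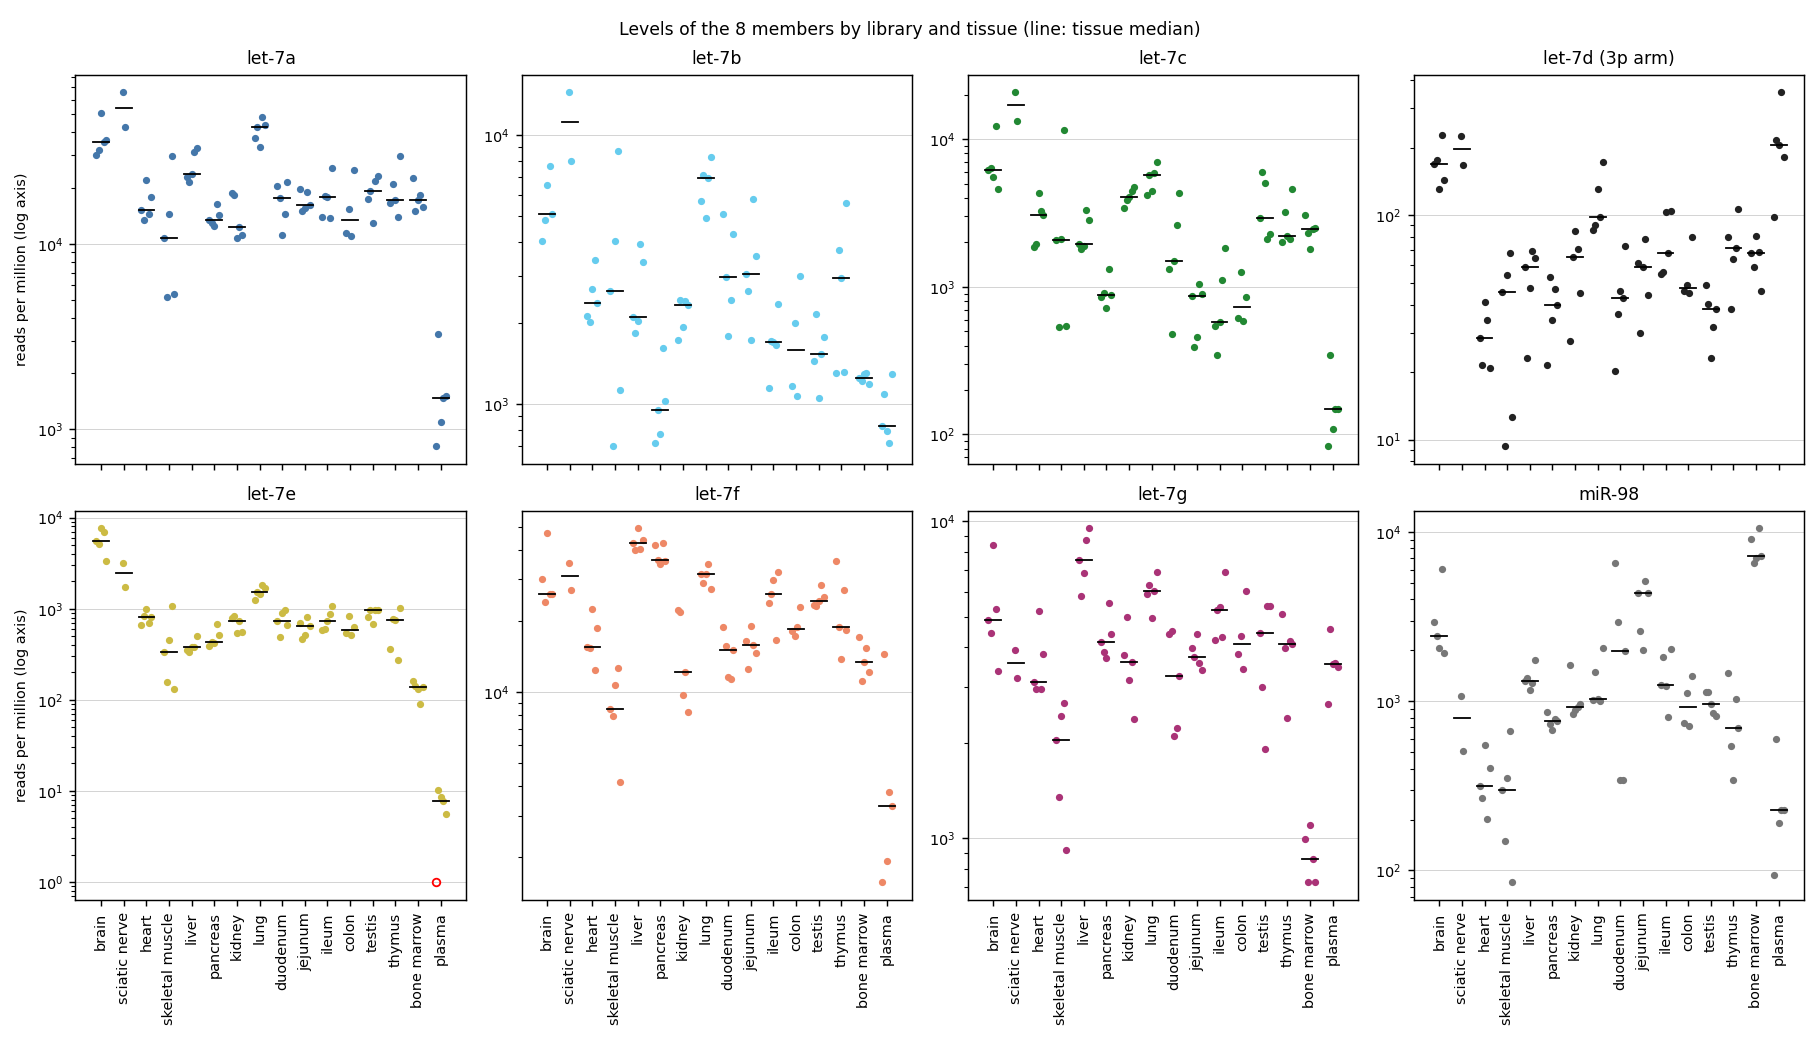
RPM (log axis) of each of the 8 members in every library, by tissue, with a line at the tissue median. The open red circle marks the plasma library with 0 reads of let-7e, drawn at 1 RPM; let-7e stands highest in the 5 brain libraries (3342 to 7634 RPM) and miR-98 in bone marrow (6535 to 10521 RPM), and each panel has its own axis.

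Each tissue was set against the average of the remaining 15 tissues in 1 edgeR fit over 480 miRNAs, with library sizes scaled by TMM and Benjamini-Hochberg adjustment within each tissue. Of the 128 values of 8 members in 16 tissues, 31 passed an adjusted p of 0.05 as higher and 27 as lower, 45.3% against 38.9% of all 7680 values tested. By direction these were 24.2% higher against 24.6% of all values, and 21.1% lower against 14.3%. Without the 4 libraries low in their markers the counts were 32 and 27, and without testis 2 as well 32 and 26. Of the 58 values called, 34 kept their direction and their call under every alternative, 16 higher and 18 lower, and the account below leads with these. TMM takes 1 library as its reference, and with another library left out that reference moved from colon 3 to a different library in 51 of 76 fits, and the fold change of let-7a in bone marrow moved with it. Calls also lost in such fits included let-7c in skeletal muscle (44 fits), let-7c in brain (13) and let-7b in duodenum (12). Whether these losses went with the reference was not tested.

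**Figure D3:**
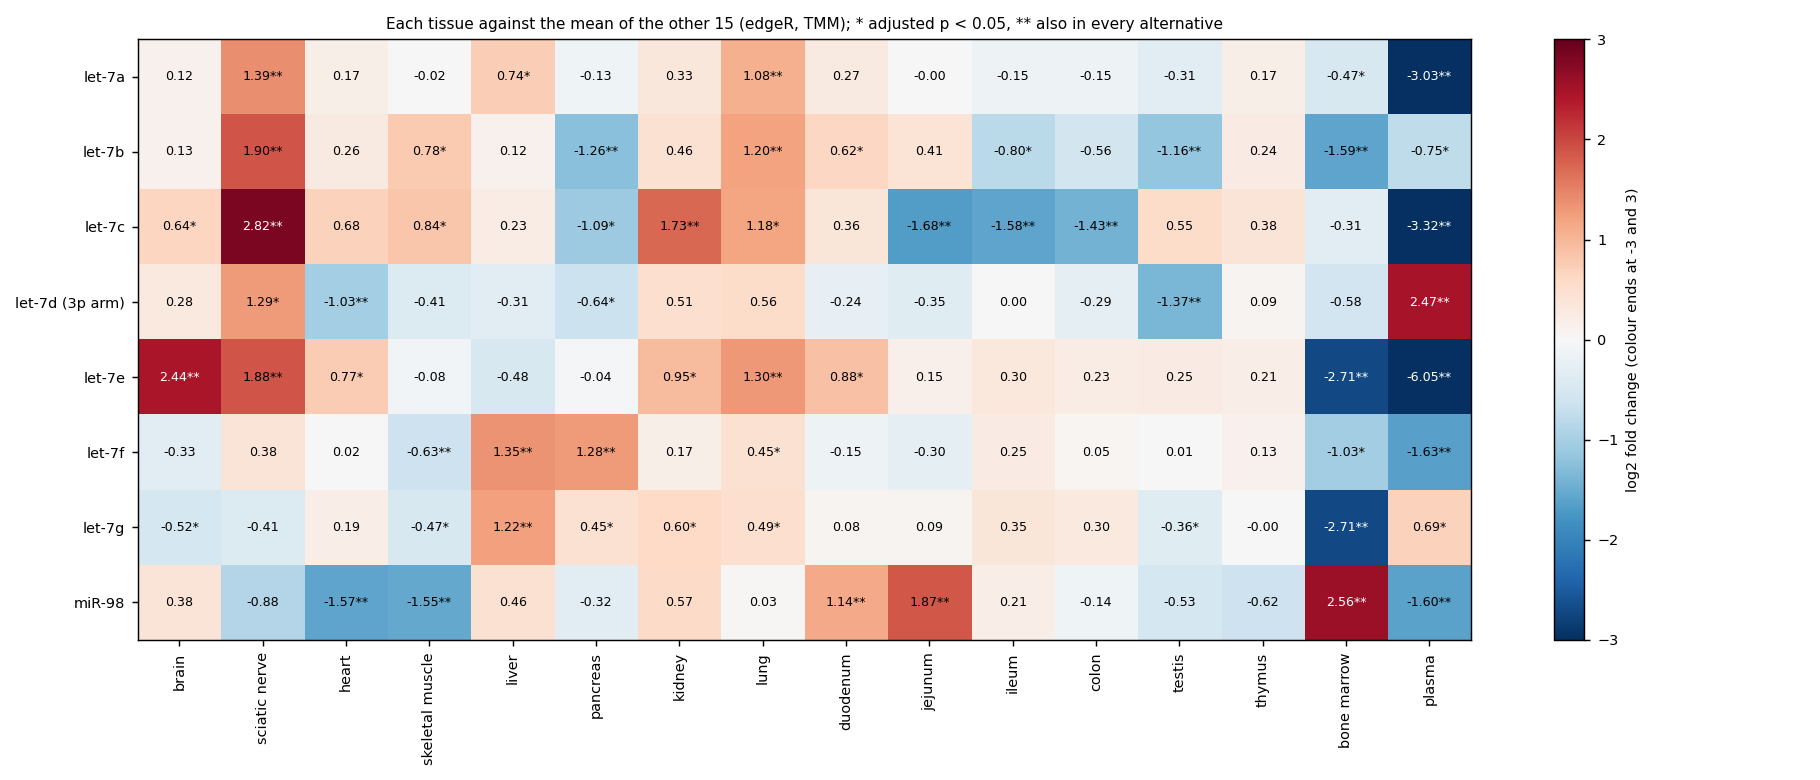
log2 fold change of each member (rows) in each tissue (columns) against the mean of the other 15 tissues, from edgeR with TMM. An asterisk marks an adjusted p under 0.05 and 2 asterisks a call kept under every alternative; the lowest value is -6.05 for let-7e in plasma and the highest 2.82 for let-7c in sciatic nerve.

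In plasma all 8 members were called, 2 higher and 6 lower, where 52.5% of all miRNAs tested were called, 27.9% higher and 24.6% lower. In bone marrow 1 member was higher and 5 were lower, against 16.5% and 24.6% of all miRNAs. In lung 6 were higher and 0 lower, against 20.4% and 8.75%. In sciatic nerve 5 were higher and 0 lower, against 24.8% and 14.4%. Liver, kidney and duodenum each had 3 higher and 0 lower, liver against 23.3% and 12.3%, kidney against 24.2% and 10.2%, and duodenum against 21.2% and 3.75%. With DESeq2 size factors lung had 3 higher and liver 2 higher and 2 lower. Kidney had 1 higher with library size as the only scaling.

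The remaining tissues had fewer calls, or calls in both directions. Pancreas had 2 members higher and 3 lower, against 21.2% and 19.2% of all miRNAs, and skeletal muscle also had 2 and 3, against 26.5% and 16.5%. Brain had 2 higher and 1 lower, against 45.2% and 28.1%, heart 1 and 2, against 21.9% and 17.5%, and jejunum 1 and 1, against 27.5% and 13.1%. Testis had 0 higher and 3 lower, against 34.0% and 16.2%, ileum 0 and 2, against 19.0% and 8.96%, and colon 0 and 1, against 18.5% and 6.25%. In thymus edgeR called 0 of the 8, against 21.2% higher and 5.21% lower. There 1 member, miR-98, had an unadjusted p under 0.05, and the DESeq2 Wald test called that 1 as lower. Several of these splits between higher and lower depended on the scaling. Brain had 8 higher and 0 lower with library size only and 7 higher and 0 lower with DESeq2 size factors, and the median change of all miRNAs in brain moved from 0.13 to 1.22 and 0.87. Testis had 2 higher and 2 lower with library size only and 3 higher and 2 lower with DESeq2 size factors. Skeletal muscle had 0 higher and 4 lower with library size only. Leaving out the 4 libraries low in their markers gave 7 higher and 0 lower in brain, 0 and 3 in skeletal muscle, 0 and 4 in testis, 1 and 0 in duodenum, 2 and 1 in liver, 2 and 0 in kidney, 2 and 1 in pancreas, 2 and 2 in heart, 6 and 0 in sciatic nerve and 0 and 1 in thymus. The counts of the other tissues did not move, and without testis 2 as well that of bone marrow was 1 and 4.

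Taken in either direction, the share of all miRNAs called was 41.0% in bone marrow, 29.2% in lung, 39.2% in sciatic nerve, 35.6% in liver, 34.4% in kidney, 25.0% in duodenum, 40.4% in pancreas, 42.9% in skeletal muscle, 73.3% in brain, 39.4% in heart, 40.6% in jejunum, 50.2% in testis, 27.9% in ileum, 24.8% in colon and 26.5% in thymus.

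The median change of all miRNAs was itself not 0 in many tissues. It was -0.97 in bone marrow, -0.59 in plasma, -0.38 in pancreas, -0.36 in liver, -0.25 in skeletal muscle, -0.19 in lung, -0.14 in heart, 0.13 in brain, 0.19 in thymus, 0.21 in duodenum and 0.32 in testis. Relative to that median in bone marrow, miR-98 stood at 3.53, let-7g at -1.74, let-7e at -1.73 and let-7b at -0.61, while let-7a, let-7c, let-7d and let-7f lay between -0.06 and 0.67. The median change in bone marrow was -0.39 without the filter on low counts and 0.86 in the DESeq2 fit of all rows, so these relative values hold for the 480 miRNAs tested.

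let-7a, which is read from more than 1 gene, was highest in sciatic nerve, lung and brain. The sciatic nerve libraries held 65806 and 42639 RPM and the lung libraries 37423, 42550.1, 33213, 48658 and 43928 RPM. The plasma libraries held 812, 3263, 1092, 1471 and 1508 RPM, below every library of every other tissue, the lowest of which was skeletal muscle 2 at 5156 RPM. let-7a was 2.62-fold higher in sciatic nerve (log2 1.39 ± 0.22 SE, adjusted p = 5.11e-07, edgeR) and 2.11-fold higher in lung (1.08 ± 0.15, adjusted p = 4.56e-08, edgeR). In plasma it was 8.18-fold lower (log2 -3.03 ± 0.22, adjusted p = 9.46e-20, edgeR). Its median ranked among the 5th to the 14th most abundant miRNAs of every tissue but plasma, where it ranked 36th. The value for liver, log2 0.74, was also called, and lost its call under some alternatives.

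let-7f, which has a gene next to that of let-7d, led in liver and pancreas. The liver libraries held 42699, 39825, 49236, 40063 and 43839 RPM, and the pancreas libraries 41827, 36162, 34949.7, 42797 and 35917 RPM. Outside these tissues brain 3 with 47138 RPM, thymus 1 with 35767 RPM and sciatic nerve 1 with 34962.0 RPM reached into these ranges. let-7f was 2.54-fold higher in liver (log2 1.35 ± 0.16, adjusted p = 4.67e-11, edgeR) and 2.43-fold higher in pancreas (1.28 ± 0.16, adjusted p = 2.14e-10, edgeR). It fell by 1.63 on the log2 scale in plasma and by 0.63 in skeletal muscle, both kept under every alternative, with ranges of -2.22 to -0.93 and -1.24 to -0.40. In pancreas the libraries had a median of 2.80 let-7f reads for each let-7a read, and at least 2.51. Outside pancreas only plasma, with 1.77 to 4.42, had a library at that level, and in sciatic nerve the ratio was 0.531 and 0.635.

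let-7g, which lies inside the gene WDR82, followed let-7f across tissues more closely than any other pair of members did (Spearman's rho 0.81 over 16 tissue medians). The liver libraries held 7544, 5815, 6868, 8717 and 9509 RPM. The bone marrow libraries held 992, 728, 1103, 857 and 727 RPM, and only skeletal muscle 5 at 915 RPM fell within that range. let-7g was 2.33-fold higher in liver (log2 1.22 ± 0.13, adjusted p = 3.35e-12, edgeR) and 6.57-fold lower in bone marrow (-2.71 ± 0.19, adjusted p = 4.71e-20, edgeR). Its 5 plasma libraries held 2642 to 4577 RPM, within the range of most organs, and the plasma libraries were thus not the lowest for let-7g, as they were for let-7a. The other 7 values called for let-7g had absolute log2 changes of 0.69 or less and lost their calls or changed direction under some alternatives.

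miR-98, whose gene lies within HUWE1, was the 1 member that was highest in bone marrow, where let-7g was lowest. The bone marrow libraries held 9125, 6535, 7031, 10521 and 7238 RPM, and the highest library elsewhere was duodenum 1 at 6590.0 RPM. Jejunum came next with 4376, 2588, 2018, 5142 and 4358 RPM. Heart held 314, 266, 552, 202 and 401 RPM, and skeletal muscle 299, 150.1, 352, 667 and 85.5 RPM. miR-98 was 5.88-fold higher in bone marrow (log2 2.56 ± 0.20, adjusted p = 2.03e-18, edgeR) and 3.65-fold higher in jejunum (1.87 ± 0.21, adjusted p = 1.40e-11, edgeR). It was 2.97-fold lower in heart (log2 -1.57 ± 0.29, adjusted p = 8.20e-06, edgeR) and 2.92-fold lower in skeletal muscle (-1.55 ± 0.29, adjusted p = 1.38e-05, edgeR). In plasma it was 3.03-fold lower (log2 -1.60, with a range of -2.23 to -0.97 over the alternatives). For each let-7g read the bone marrow libraries held 6.38 to 12.3 miR-98 reads, and all other libraries 0.0358 to 1.50.

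In duodenum miR-98 split the libraries. Duodenum 1, 2 and 5 held 6590.0, 2924 and 1971 RPM, and duodenum 3 and 4, the libraries low in the intestinal miRNAs, held 343 RPM each. The edgeR log2 change of miR-98 in duodenum was 1.14 ± 0.22 with all 5 libraries (adjusted p = 4.24e-05, edgeR) and 1.82 without the 4 libraries low in their markers (adjusted p = 2.51e-09, edgeR). Along the intestine the medians were 1971 RPM in duodenum, 4358 in jejunum, 1242 in ileum and 929 in colon. miR-98 was not called in ileum or colon, where the log2 changes were 0.21 and -0.14.

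let-7e, which shares a cluster with miR-125a and miR-99b, separated brain from every other tissue in RPM. In the fit scaled by TMM its difference between brain and sciatic nerve, log2 0.53, was not called. The brain libraries held 5563, 5074, 7634, 7000.3 and 3342 RPM, all above the highest value elsewhere, which was 3183 RPM in sciatic nerve 1. Sciatic nerve 2 held 1714 RPM, and lung held 1260.2, 1517, 1449.7, 1829 and 1709 RPM. At the other end, bone marrow held 160.2, 142, 129.7, 89.9 and 138 RPM, and plasma 0, 10.2, 8.65, 7.66 and 5.53 RPM, from 0, 18, 12, 12 and 8 reads. In plasma 1, whose depth was the lowest of the plasma libraries, the count of 0 allows up to 10.9 RPM. The plasma libraries thus lay below all others, and bone marrow overlapped only with the lowest skeletal muscle libraries.

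let-7e was 5.44-fold higher in brain (log2 2.44 ± 0.18, adjusted p = 5.62e-20, edgeR) and 3.67-fold higher in sciatic nerve (1.88 ± 0.29, adjusted p = 1.21e-07, edgeR). In lung it was 2.46-fold higher (log2 1.30 ± 0.20, adjusted p = 3.91e-07, edgeR). It was 6.54-fold lower in bone marrow (log2 -2.71 ± 0.30, adjusted p = 7.97e-12, edgeR) and 66.5-fold lower in plasma (-6.05 ± 0.38, adjusted p = 5.18e-23, edgeR). All 5 calls were kept under every alternative, whereas those in heart, kidney and duodenum (log2 0.77, 0.95 and 0.88) were not. Without the 4 libraries low in their markers the value in duodenum was 0.22 (adjusted p = 0.760, edgeR). The TMM factors of the brain libraries were 1.52 to 2.69, and over all alternatives the change of let-7e in brain ranged from 2.18 to 3.56.

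The other miRNAs of the let-7e cluster had like orders of tissues. miR-125a, which has its own seed, held 11179, 8247, 15939.7, 14407 and 9003 RPM in brain and 25.5, 13.0, 33.1, 81.1 and 29.0 RPM in plasma. miR-99b held 6701, 4802, 7467, 7487 and 5914 RPM in brain and 64.0 to 268 RPM in plasma. Both were higher in brain, by log2 2.34 ± 0.22 for miR-125a (adjusted p = 4.69e-15, edgeR) and 1.82 ± 0.26 for miR-99b (adjusted p = 4.72e-09, edgeR). In bone marrow miR-125a was lower by log2 -2.26 (adjusted p = 1.46e-07, edgeR), and miR-99b, at -0.67, was not called (adjusted p = 0.108, edgeR). Over the 16 tissue medians Spearman's rho with let-7e was 0.86 for miR-125a and 0.79 for miR-99b. It was also 0.79 for miR-125b and 0.73 for miR-99a, which lie outside that cluster. Of the 472 other miRNAs tested, miR-125a-3p (0.86), miR-125a and miR-1468 (0.85) had the orders most like that of let-7e.

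let-7c, whose gene lies beside miR-99a and miR-125b genes, was highest in sciatic nerve. The nerve libraries held 20802 and 13293 RPM, above all other libraries, the highest of which were brain 4 at 12228 RPM and skeletal muscle 4 at 11513 RPM. Kidney held 3406, 3857, 4035, 4489 and 4753 RPM. In the intestine beyond the duodenum it was low: jejunum held 867, 392, 459, 1048 and 889 RPM, ileum 546, 345, 576, 1110.5 and 1819 RPM, and colon 611, 1256, 584 and 859 RPM. In plasma the libraries held 83.7, 347, 109, 148 and 149 RPM, of which 4 lay below all libraries of other tissues.

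let-7c was 7.06-fold higher in sciatic nerve (log2 2.82 ± 0.35, adjusted p = 3.40e-10, edgeR) and 3.31-fold higher in kidney (1.73 ± 0.26, adjusted p = 1.15e-07, edgeR). It was lower in jejunum by log2 -1.68 ± 0.37 (adjusted p = 0.000183, edgeR), in ileum by -1.58 ± 0.37 (adjusted p = 0.000405, edgeR) and in colon by -1.43 ± 0.40 (adjusted p = 0.00560, edgeR). In plasma it was lower (log2 -3.32 ± 0.42, adjusted p = 2.98e-10, edgeR). These calls were kept under every alternative. The value for kidney, whose TMM factors were 0.480 to 0.916, ranged from log2 0.97 to 1.87, and in RPM the kidney median of 4035 lay below those of brain (6224) and lung (5729). In skeletal muscle the value was log2 0.84 (adjusted p = 0.0142, edgeR), and the call was lost in 44 of the 76 fits that left out 1 library. Without the library labelled skeletal muscle 4 the change was -0.08, and the other 4 libraries held 535 to 2123 RPM. Testis 2 and 3, which were low in the testis miRNAs (miR-202 at 241 and 0.493 RPM), held 5969.6 and 5032 RPM of let-7c against 2104 to 2910.5 RPM in testis 1, 4 and 5.

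miR-99a and miR-125b followed the order of let-7c. miR-99a held 2797 and 3551 RPM in sciatic nerve, 102 to 169 RPM in 4 jejunum libraries and 63.5 RPM in the fifth, and 29.1 to 88.8 RPM in plasma. It was higher in sciatic nerve by log2 1.98 ± 0.37 (adjusted p = 7.93e-06, edgeR) and lower in jejunum by -2.63 ± 0.38 (adjusted p = 3.58e-08, edgeR). miR-125b was higher in sciatic nerve by log2 2.27 ± 0.39 (adjusted p = 1.68e-06, edgeR) and lower in jejunum by -2.17 ± 0.40 (adjusted p = 9.09e-06, edgeR). Over the 16 tissue medians rho with let-7c was 0.90 for miR-99a and 0.87 for miR-125b, and the most alike in order was miR-130a at 0.91. For miR-99b and miR-125a, which lie beside let-7e and not let-7c, rho with let-7c was 0.82 and 0.79. For let-7a, 1 of whose genes has the same neighbours, rho was 0.46 with miR-99a and 0.48 with miR-125b.

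**Figure D4:**
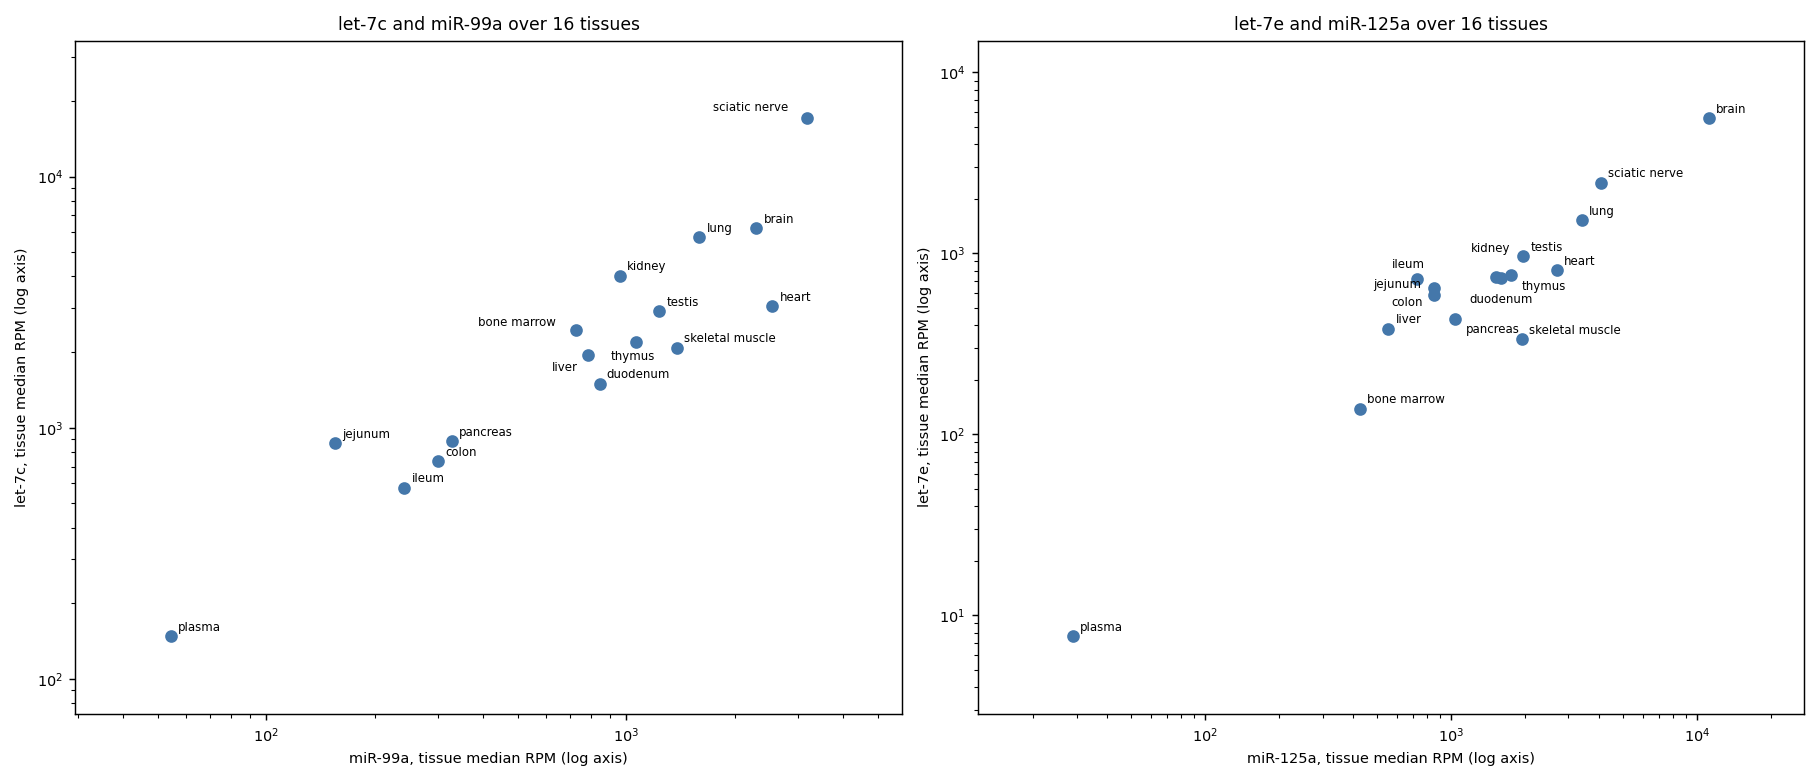
Tissue medians in RPM (log axes) of let-7c against miR-99a (left) and of let-7e against miR-125a (right), 1 point for each of 16 tissues. Plasma is the lowest point in both panels (148 RPM of let-7c and 7.66 RPM of let-7e), and sciatic nerve (17047 RPM of let-7c) and brain (5563 RPM of let-7e) are the highest.

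let-7b, whose gene lies next to let-7a-1, overlapped between all tissues that were neighbours in its order. The sciatic nerve libraries held 14405 and 7999 RPM and the lung libraries 5703, 7079, 4911, 6927 and 8303 RPM. Pancreas held 718, 952, 773, 1609 and 1028 RPM and bone marrow 1251, 1217, 1297, 1301 and 1182 RPM. let-7b was 3.72-fold higher in sciatic nerve (log2 1.90 ± 0.31, adjusted p = 4.75e-07, edgeR) and 2.30-fold higher in lung (1.20 ± 0.22, adjusted p = 8.84e-06, edgeR). It was lower in bone marrow by log2 -1.59 ± 0.29 (adjusted p = 3.96e-06, edgeR), in pancreas by -1.26 ± 0.28 (adjusted p = 0.000152, edgeR) and in testis by -1.16 ± 0.28 (adjusted p = 0.000314, edgeR). These calls were kept under every alternative. In plasma let-7b held 718 to 1293 RPM, a range that overlapped with those of pancreas, bone marrow, colon and other tissues, and the median share of let-7b in the family was 10.1%, the highest of the 16 tissues.

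The let-7d row, the 3p strand, was the scarcest member in tissue, and its highest median was that of plasma. Plasma held 98.3, 217, 206, 353 and 181 RPM, sciatic nerve 225 and 167 RPM, and brain 169, 176, 131, 228 and 144 RPM, and these ranges overlapped. Heart held 28.4, 21.4, 41.1, 34.3 and 20.8 RPM and testis 49.0, 40.1, 23.2, 31.9 and 38.3 RPM. let-7d was 5.55-fold higher in plasma (log2 2.47 ± 0.19, adjusted p = 1.16e-18, edgeR). It was 2.04-fold lower in heart (log2 -1.03 ± 0.27, adjusted p = 0.00174, edgeR) and 2.58-fold lower in testis (-1.37 ± 0.29, adjusted p = 6.23e-05, edgeR).

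The 5p row of let-7d behaved otherwise. In plasma it held 131, 523, 176, 321 and 231 RPM, with a log2 change of -0.04 ± 0.16 that was not called. In bone marrow it held 173, 146, 195, 143 and 138 RPM and was lower by -2.00 ± 0.20 (adjusted p = 1.02e-13, edgeR). For each 100 reads of the 5p row the 3p row had a median of 13.5 over the 76 libraries. In plasma the median was 78.4, with a range of 41.5 to 117, and in bone marrow 40.0, with a range of 33.3 to 48.1. The other 14 tissues had medians of 8.80 to 21.5, and the bone marrow counts behind the ratio were small, 10 to 15 reads of the 3p row in a library. For the other members the 3p rows had medians of 0.628 or fewer reads for each 100 reads of the 5p row. In plasma these ratios were also above their medians over all libraries for let-7a (1.04 against 0.0549), let-7b (0.817 against 0.149) and let-7f (0.186 against 0.00453). They were so too for miR-98 (0.760 against 0, from 14 plasma reads of the 3p row) and let-7e (4.17 against 0.628, from 2), but not for let-7c, at 0 in plasma. For let-7g the plasma median of 0.0811, from 15 reads, was above that over all libraries (0.0439). It was below the let-7g medians of bone marrow (0.980) and jejunum (0.101).

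**Figure D5:**
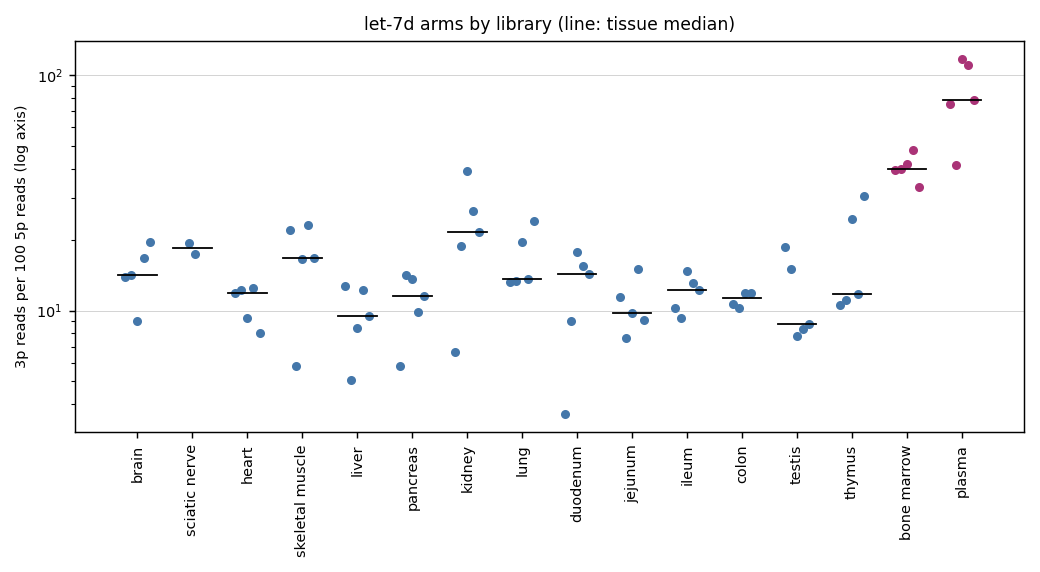
Reads of the let-7d 3p row for each 100 reads of the let-7d 5p row (log axis) in every library, by tissue, with a line at the tissue median. Plasma (41.5 to 117) and bone marrow (33.3 to 48.1), in purple, stand above nearly all other libraries, whose highest value was 39.3 in kidney.

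In plasma the changes of the members ran from strongly lower to strongly higher. let-7e, let-7c and let-7a had the largest changes (log2 -6.05, -3.32 and -3.03), let-7f and miR-98 stood at -1.63 and -1.60, let-7b at -0.75, let-7g at 0.69 and the let-7d 3p row at 2.47. Relative to the median change of all miRNAs in plasma, let-7b stood at -0.17 and let-7f and miR-98 at -1.05 and -1.01. With library size as the only scaling let-7g changed direction (-0.07), and the other 7 kept theirs. Plasma libraries were the richest in miR-486, and the part of that miRNA in these values was not tested beyond the shares given above. Plasma 2 stood above the other plasma libraries for let-7a, let-7c, let-7f and miR-98.

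Plasma was also set against bone marrow, the other blood-related tissue, and 6 of the 8 members were called (2 higher, 4 lower), against 43.1% of all miRNAs (26.5% higher, 16.7% lower). let-7g was 9.16-fold higher in plasma (log2 3.20 ± 0.22, adjusted p = 4.67e-20, edgeR), and the let-7d row 7.25-fold higher (2.86 ± 0.37, adjusted p = 9.86e-10, edgeR). miR-98 was 14.9-fold lower in plasma (log2 -3.89 ± 0.39, adjusted p = 1.49e-13, edgeR) and let-7e 8.79-fold lower (-3.14 ± 0.37, adjusted p = 1.03e-10, edgeR). let-7c and let-7a were lower by log2 -2.83 and -2.40. The ranges in RPM of these 6 members did not overlap between the tissues. Without the 4 libraries low in their markers 2 members were higher and 5 lower, with let-7f also called as lower (log2 -0.64, adjusted p = 0.0394, edgeR). The counts were also 2 and 5 with DESeq2 size factors and with library size only, and 3 and 5 with only the 2 tissues fitted.

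Brain was set against sciatic nerve, as central and peripheral nervous tissue, and 4 of 8 members were called (1 higher, 3 lower in brain), against 45.2% of all miRNAs (27.3% higher, 17.9% lower). let-7a, let-7b and let-7c were lower in brain by log2 -1.18 ± 0.29 (adjusted p = 0.000791, edgeR), -1.66 ± 0.42 (adjusted p = 0.00103, edgeR) and -2.04 ± 0.53 (adjusted p = 0.00141, edgeR). miR-98 was higher in brain by log2 1.18 ± 0.49 (adjusted p = 0.0411, edgeR). let-7e, at 0.53 ± 0.43, was not called (adjusted p = 0.312, edgeR), although the RPM ranges of let-7e did not overlap between the tissues. With library size as the only scaling 2 members were called as higher and 0 as lower, and let-7a, let-7b and let-7c, at log2 -0.55, -0.99 and -1.28, lost their calls. With DESeq2 size factors 2 were higher and 2 lower, and let-7a was not called. Without the 4 libraries low in their markers 1 was higher and 2 were lower. The comparison rested on 2 nerve libraries, and without sciatic nerve 1 edgeR called 0 of the 8 members, with 3 at an unadjusted p under 0.05. The median change of all miRNAs in this comparison was 0.72, and relative to it miR-98 stood at 0.46 and let-7a, let-7b and let-7c at -1.91, -2.38 and -2.77.

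Heart and skeletal muscle, the 2 striated muscles, were compared with each other, and 1 of 8 members was called, as higher in heart, against 12.7% of all miRNAs (6.25% higher, 6.46% lower). let-7g held 3108, 2961, 5221, 2955 and 3824 RPM in heart and 2037, 1343, 2423, 2672 and 915 RPM in skeletal muscle, with no overlap. It was 1.54-fold higher in heart (log2 0.62 ± 0.21, adjusted p = 0.0330, edgeR). Without skeletal muscle 4 and the other libraries low in their markers, let-7g had an adjusted p of 0.0858 and let-7e, at log2 1.19, passed in its place (adjusted p = 0.0245, edgeR). let-7e held 669 to 986 RPM in heart and 133 to 1061 RPM in skeletal muscle, where the value of 1061 belonged to skeletal muscle 4.

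A miRNA was called tissue enriched (TE) where its mean RPM in a tissue exceeded that of the samples outside the tissue by a factor over 5 and an exact rank-sum test passed an adjusted p of 0.05. It was called highly tissue enriched (HTE) where the tissue median was more than 5 times the highest sample elsewhere. miR-98 met the first criterion in bone marrow (fold 6.05, adjusted p = 1.17e-05, exact rank-sum test), where 3.08% of the 650 miRNAs did. let-7e met it in brain (fold 8.44, adjusted p = 7.18e-07, exact rank-sum test), where 29.1% did. With library sizes scaled by TMM neither met it, and let-7d in plasma did. No member met the second criterion in any tissue, against 0.154% of miRNAs in bone marrow and 8.62% in brain. The median of let-7e in brain was 1.75 times the highest sample elsewhere, that of let-7c in sciatic nerve 1.39 times and that of miR-98 in bone marrow 1.10 times. In brain, miR-125a, miR-99b and let-7e-3p also met the first criterion, with folds of 8.08, 6.36 and 9.07.

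The members differed in how evenly they were expressed. Over all 76 libraries the SD of log2(RPM + 1) was 0.80 for let-7g, 0.99 for let-7f, 0.99 for let-7d, 1.01 for let-7b, 1.15 for let-7a, 1.50 for miR-98, 1.61 for let-7c and 2.14 for let-7e. The median SD of the 114 miRNAs with a median above 100 RPM was 1.43, and 5 of the 8 members lay below it. The let-7d row was 1 of these 5 but not 1 of the 114, since its tissue medians exceeded 100 RPM only in plasma, sciatic nerve and brain. The median SD within a tissue was 0.29 to 0.54 for the members, and the widest tissues were skeletal muscle for let-7a, let-7b, let-7c and let-7d, plasma for let-7e and let-7f, testis for let-7g and duodenum for miR-98.

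Across the 16 tissue medians the members did not move as a block. Spearman's rho for the 28 pairs had a median of 0.26 and ran from 0.01 (let-7c with let-7g) to 0.81 (let-7f with let-7g), beside a median of 0.16 between members and other miRNAs. let-7a had rho of 0.52 to 0.71 with let-7b, let-7c, let-7e, let-7f, let-7g and miR-98, and 0.29 with the let-7d row. The 5p row of let-7d had rho of 0.75 with let-7f, which has a gene beside that of let-7d. Its rho was nearly as high with let-7a (0.73) and with let-7g (0.70), whose gene lies within WDR82. With let-7b, let-7c, let-7e and miR-98 it was 0.20 to 0.59, and with the 3p row 0.36. miR-98 was most like miR-148b (0.91), let-7b like miR-574 (0.86) and let-7g like miR-455 (0.76). These are descriptions of medians that share libraries, depths and scaling.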

How the data were processed

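Small RNA of 16 tissues of untreated male beagles had been prepared with the TruSeq Small RNA kit and sequenced. The authors clipped adaptors and used OSA v4 for alignment to the dog genome (CanFam3.1), with no mismatch allowed and reads at more than 10 locations dropped. With bedtools they counted reads that overlapped at least 70% of a locus annotated in dog, human or rat. The deposited values are counts for each miRNA and sample, the authors' total of miRNA reads, and RPM, which is the count scaled by that total. Rows at about the same locus were merged by the authors, so reads that fit several near-identical let-7 genes cannot be resolved. A miRNA not listed for a sample was set to 0. A sample's counts summed to 0.0449% to 1.16% more than its total.

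Groups came from the sample labels. The table held 1 sample name (a pool) that matched no labelled sample and was left out, and 1 labelled colon sample had no values. For let-7f the authors' maximum RPM over all samples was 1.03 times the highest library used, and for the other members it was the same. No 2 samples of a tissue agreed within sampling noise (147 pairs, smallest chi-square for each degree of freedom 12.3). Counts were tested with edgeR 4.0.16 in R 4.3.3 (TMM, filterByExpr, robust quasi-likelihood, Benjamini-Hochberg), in 1 fit over all tissues with tissue as the only term. DESeq2 1.42.0 was an alternative. TE and HTE used RPM, with exact rank-sum tests in Python 3.11.15 with scipy 1.17.1. Alternatives changed the scaling, the filter, the reference mean, the tissues fitted, the fold limit, the TE criteria, and left out each library in turn. The procedures were tested on simulated data. Members and lists were chosen with earlier results of these data known. The miRNAs named besides the members are the other let-7 and miR-98 rows, the miR-99 and miR-125 neighbours, tissue markers and the 3 miRNAs most like each member in tissue order. Neighbouring genes were read from the RefSeq gene table of UU_Cfam_GSD_1.0, which is not the build of the files. Mature sequences were not used here.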

Additional observations from a re-analysis of the deposited data

Results flagged for a closer look

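Within tissues of 4 or 5 libraries, 10 of 120 groups of member values held a library far from the rest (Dixon's test at 95% on RPM). The test flags about 1 in 20 groups by chance if values are normally distributed, which was not checked for RPM. All flagged values were the highest of their group, and some came from the same library, so the groups are not independent. Plasma 2 stood above the other 4 plasma libraries for let-7a (3263 RPM against 812 to 1508), let-7c (347 against 83.7 to 149), let-7f (14435 against 1576 to 3784) and miR-98 (597 against 94.6 to 228). Brain 4 stood above the other brain libraries for let-7c (12228 RPM against 4604 to 6414) and miR-98 (6018 against 1934 to 2923), and brain 3 for let-7f (47138 against 24090.2 to 30041). The library labelled skeletal muscle 4 held 11513 RPM of let-7c against 535 to 2123 in the others, and it was also the library low in muscle miRNAs. Colon 5 held 79.6 RPM of let-7d against 45.2 to 48.7, and kidney 1 held 1632 RPM of miR-98 against 845 to 965. The causes were not tested.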

How the results depend on the processing

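Of 69 member values called in the 19 comparisons, 40 kept direction and call under every alternative run, and 29 lost the call in at least 1. Some values changed direction. With library size only they were let-7a in bone marrow (0.022), let-7g in brain (0.54), kidney (-0.056), plasma (-0.066) and testis (0.13). With DESeq2 size factors they were let-7g in brain (0.18) and testis (0.041) and let-7f in lung (-0.0135), and with the DESeq2 Wald test the same values were 0.18, 0.040 and -0.0136. Without the 4 libraries low in their markers, an alternative chosen after seeing the data, let-7g in brain was 0.19 and let-7c in skeletal muscle -0.11, and without testis 2 as well they were 0.19 and -0.052. Over the fits that left out 1 library each, let-7a in bone marrow ran from -0.62 to 0.069 and let-7c in skeletal muscle from -0.0794 (without skeletal muscle 4) to 1.21. For let-7a the sign went with the library that TMM took as reference: with thymus 4 (42 fits) it was 0.013 to 0.069, with colon 3 (25 fits) -0.55 to -0.46.

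A fold above 2 in addition left 37 of 58 calls, 18 of them higher. Heart against skeletal muscle had 0 members called with DESeq2 size factors, 0 with only the 2 tissues fitted, 0 with a fold above 2, 2 with library size only, 2 without the filter, and 0 to 2 with a library left out. It was 0 without heart 1, 4 or 5, skeletal muscle 1, 2, 3 or 5, colon 3, kidney 5, or plasma 3 or 5, with 2 to 4 members at an unadjusted p under 0.05, and the 1 member called by the DESeq2 Wald test was the let-7d row. Brain against sciatic nerve had 2 with library size only, both higher in brain, so that let-7a, let-7b and let-7c lost their calls, and 0 to 5 with a library left out, 0 being without sciatic nerve 1. TE members numbered 1 with library sizes scaled by TMM (let-7d in plasma, in place of miR-98 in bone marrow and let-7e in brain) and 2 to 3 with a library left out, the third being let-7c in sciatic nerve. Leaving plasma out of the fit, also chosen after seeing the data, gave 49 calls in 15 tissues.

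No paired analysis was possible because the columns carry no dog number: replicate numbers were given in accession order. Depth limited let-7e in plasma and let-7d in bone marrow and testis, where libraries held few reads.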
